A study of Mus musculus with 4 samples.

Results

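The translation factor eIF5A carries hypusine, an amino acid that is built on a single lysine of the protein. Deoxyhypusine synthase, encoded by Dhps, moves part of the polyamine spermidine onto that lysine, and deoxyhypusine hydroxylase, encoded by Dohh, then completes the residue. Eif5a codes for the isoform that most cells use, and Eif5a2 for a second isoform that can carry the same modification. eIF5A helps ribosomes through sequences on which peptide bonds form slowly, and it also acts when translation ends. The 4 genes Eif5a, Eif5a2, Dhps and Dohh were taken by name from the 55573 genes of the table, and each name had 1 row.

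Ribosome-protected signal of these genes was examined in primary myoblasts, the muscle precursor cells grown out of hind-limb muscle, after 2 days of proliferation in culture with FGF. There were 2 wild-type (WT) libraries and 2 libraries labelled eIF5A knockout (KO), made from 3-week-old mice on the C57BL/6j background. The KO animals were tamoxifen-induced Pax7 CreERT2/+; eIF5A f/f mice and the WT animals were their littermates. The WT genotype is described both as Pax7 CreERT2/+ and as Pax7 +/+; eIF5A f/f, and which of these gave the 2 WT libraries is not given in the sources used here. The Cre is driven by Pax7, so cells that never expressed Pax7 keep an intact Eif5a. The labels do not say that the libraries came from separate animals or cultures, so p-values measure only the spread between these libraries, which may be technical. The titles speak of Polysome-Seq, but the protocol describes RNase I footprints recovered from a ribosome-enriching column. Signal was given as RPKM, that is, read counts scaled by the length of the gene and by a library size that the authors set. It reflects ribosomes on the mRNA and therefore both mRNA abundance and its use, and in bulk samples fewer cells of a type and less RNA per cell cannot be told apart.

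The libraries held between 642429 and 704006 recovered reads, of which 33.9% and 41.5% fell on protein-coding genes in the WT libraries and 59.2% and 65.4% in the libraries labelled KO. All 9 myoblast markers examined had reads. The summed RPKM of these markers was 344 and 211 in WT libraries 1 and 2 and 118 and 133 in KO libraries 1 and 2. Of the 9, 7 had a lower mean in the libraries labelled KO, and Itga7 and Vcam1 had a higher one. Myod1, the highest in every library, had 140 and 117 RPKM in WT and 48.6 and 79.8 RPKM in KO. Myog had 91.0 and 4.26 RPKM in WT and 0.74 and 1.66 RPKM in KO, so the WT sums differ largely by this gene. The sum over 10 fibroblast markers was 614 and 406 in WT and 991 and 476 in KO, with 7 of 10 higher in KO. The sum over 6 endothelial markers was 179 and 266 against 286 and 350, with 6 of 6 higher in KO. The sum over 8 immune markers was 33.4 and 42.3 against 32.3 and 37.7, and Cd3e and Itgam were at 0 in every library. The myoblast sums were lower in both KO libraries than in either WT library, the endothelial sums were higher, and the other sums overlapped. The part of these shifts in the results that follow was not tested.

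The coding sequences around the modified lysine show how alike the substrates are at this site. The lysine is codon 50, an AAG, in both genes. In build GRCm38 it lies on the minus strand at chr11:69919166-69919168 in Eif5a, within exon 3 of the 7 exons of transcript Eif5a-201. In Eif5a2 it lies on the plus strand at chr3:28782199-28782201, within exon 2 of 5. The 63 bases of codons 40 to 60 are given below from the GENCODE M21 transcripts, with the hypusine codon in capitals; a splice junction falls after base 48 in both.
Eif5a: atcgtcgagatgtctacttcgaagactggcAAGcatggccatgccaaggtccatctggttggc
Eif5a2: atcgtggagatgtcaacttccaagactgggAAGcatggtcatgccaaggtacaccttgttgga
Of the 63 bases, 54 were identical between the isoforms. The same 2 stretches are repeated with only the differing bases in capitals, since these are what would assign a footprint to one isoform or the other.
Eif5a: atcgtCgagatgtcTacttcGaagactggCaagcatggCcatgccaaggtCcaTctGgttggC
Eif5a2: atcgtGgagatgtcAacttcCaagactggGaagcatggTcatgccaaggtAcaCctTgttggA
Over the whole coding sequence the isoforms matched at 338 of 465 aligned positions (72.7%), and their longest identical run was 14 bases. No 30-base stretch of the Eif5a2 coding sequence occurred in the transcripts of another gene. Footprints of about that length on the 2 isoforms therefore differ in sequence.

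Eif5a is less distinct from its processed pseudogenes, the intronless copies of its mRNA. Of the 436 stretches of 30 bases in its coding sequence, 187 (42.9%) also occurred in the transcript of another gene, and all of these lay in 4 processed pseudogenes. Eif5al3-ps on chromosome 5 (90132229 to 90132675, plus strand) held 166 of them and was identical to Eif5a at 63 of 63 bases of the window around the hypusine codon. All 4 pseudogenes were listed at 0 reads in all 4 libraries. How the authors treated reads with more than 1 place in the genome is not given in the sources used here, so Eif5a values are uncertain to that extent. Dhps had 0 of 1081 such shared stretches.

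Eif5a (ENSMUSG00000078812; GRCm38 chromosome 11, 69916714 to 69921958, minus strand) is the targeted gene. Its signal was 34.9 and 65.2 RPKM in WT libraries 1 and 2 and 60.3 and 59.4 RPKM in KO libraries 1 and 2. These values rest on 50 and 73 reads in WT and on 130 and 114 reads in KO. WT library 1 was the low one, and both libraries labelled KO lay between the WT libraries. The 95% Poisson interval was 25.9 to 46.0 RPKM in WT library 1 and 51.1 to 82.0 RPKM in WT library 2. If each read is a separate molecule, the WT libraries thus differed from each other by more than counting error. The corresponding intervals of KO libraries 1 and 2, 50.4 to 71.6 and 49.0 to 71.3 RPKM, overlapped that of WT library 2. These intervals treat every read as independent and hold no other spread. PCR copies of 1 molecule count as several reads, so the intervals may be too narrow even for counting error.

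**Figure D1:**
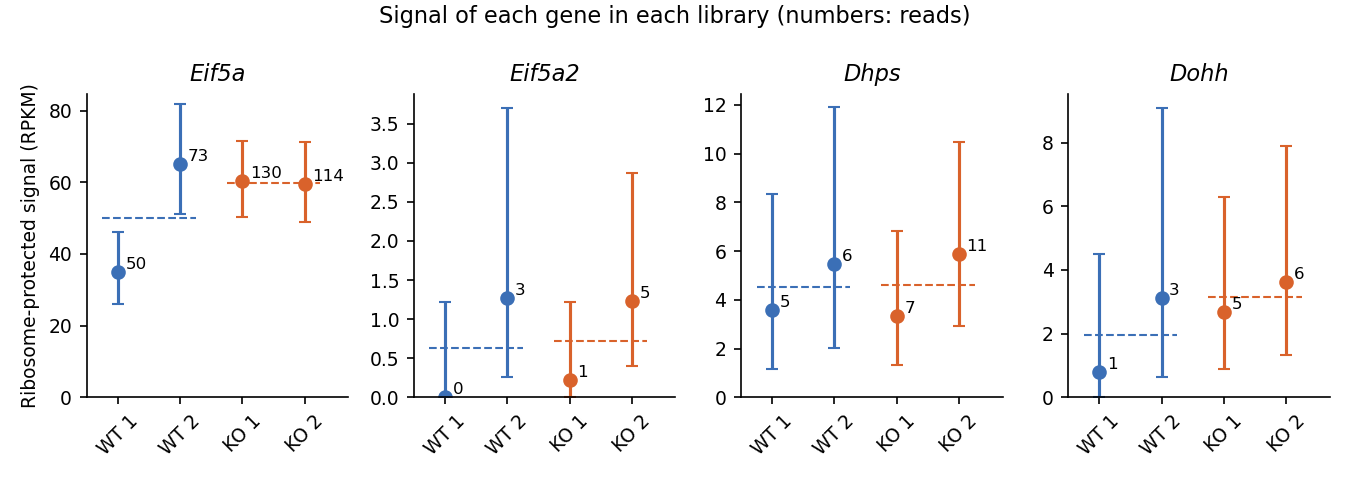
Ribosome-protected signal in RPKM (vertical axis, from 0, with its own scale for each gene) of Eif5a, Eif5a2, Dhps and Dohh in each of the 4 libraries. Points are libraries with their read counts, bars are 95% Poisson intervals for counting error, and dashed lines are group means of 2 libraries; in every panel the values of WT (blue) and KO (orange) overlap.

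The mean Eif5a signal was 50.0 ± 21.4 RPKM in WT and 59.8 ± 0.65 RPKM in KO (SD, n = 2 each). On the log2(RPKM + 1) scale the KO value was higher by 0.32 (SE 0.48), with an adjusted p of 0.839 in limma over 11363 tested genes. The 95% interval ran from -0.87 to 1.51, which in RPKM is 53.7% to 289% of the WT level. A fall to less than 53.7% of WT therefore lay outside the interval, while a smaller fall, or a rise, lay inside it. No lower Eif5a signal was thus detected under the KO label. The study itself checked the knockout in muscle stem cells, by RT-qPCR of the mRNA and by immunostaining of the protein. It reports that the knockout mice were established. Those cells and measures differ from the footprints of cultured myoblasts given here. Which exons the floxed allele loses is not given in the sources used here, and the values are totals per gene without position, so reads on exons that remain would still be counted.

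The Eif5a level also did not separate the groups when set against reads on coding genes only. It came to 261 ± 106 reads per 1000000 reads on protein-coding genes in WT and 289 ± 9.54 in KO (SD, n = 2 each). Among the 21900 protein-coding rows Eif5a ranked 467 and 282 by RPKM in WT libraries 1 and 2 and 339 and 350 in KO libraries 1 and 2. It was thus among the more strongly read genes in every library. The comparison depended on WT library 1: without it the log2 difference was -0.12 (limma adjusted p = 0.799), and without WT library 2 it was 0.76 (unadjusted p = 0.0447, limma adjusted p = 0.354).

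Eif5a2 (ENSMUSG00000050192; chromosome 3, 28781276 to 28798846, plus strand) was near the limit of detection. It was listed at 0 and 1.27 RPKM in WT libraries 1 and 2 and at 0.22 and 1.23 RPKM in KO libraries 1 and 2, from 0, 3, 1 and 5 reads. A library at 0 reads still allows up to 3 reads, which is 0.99 RPKM in WT library 1. The WT libraries alone spanned the whole range of the values, and the groups overlapped. With a mean of 0.68 RPKM the gene was under the filter of 1 RPKM and was not tested with the others. Its mean log2(RPKM + 1) was 0.13 higher in KO, but the difference was -0.46 without WT library 1 and -0.30 without KO library 2, and it was 0.82 with a pseudocount of 0.1 and 0.64 with the same sum of RPKM. When every gene above 0 was fitted, the limma adjusted p was 0.944.

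Eif5a2 supplied few of the reads on the 2 isoforms together. Its share was 0 of 50 reads in WT library 1, which allows a share of up to 6% by the limit of 3 reads and up to 7.13% by the Wilson interval, and 3 of 76 reads in WT library 2, or 3.95% (95% Wilson interval 1.35 to 11.0). In KO library 1 the share was 1 of 131 reads, or 0.763% (0.135 to 4.20), and in KO library 2 it was 5 of 119 reads, or 4.20% (1.81 to 9.46). The means of 1.97% ± 2.79 in WT and 2.48% ± 2.43 in KO (SD, n = 2 each) did not differ beyond the spread (exact two-sided permutation p = 0.667). With 2 libraries a group this test cannot give a p under 0.333.

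Dhps (ENSMUSG00000060038; chromosome 8, 85071757 to 85075162, plus strand) encodes the enzyme that takes spermidine for the first step. Its signal was 3.57 and 5.48 RPKM in WT libraries 1 and 2 and 3.32 and 5.86 RPKM in KO libraries 1 and 2, from 5, 6, 7 and 11 reads. In each group 1 library was low and 1 high, and the group means were nearly equal at 4.52 ± 1.35 and 4.59 ± 1.80 RPKM (SD, n = 2 each). The log2 difference was 0.0009 (SE 0.43; limma adjusted p = 1.000). Its 95% interval from -1.05 to 1.06 corresponds in RPKM to 36.5% to 232% of the WT level, so changes of 2-fold in either direction were within it. The last 128 exonic bases of Dhps (5.51% of its length, all outside the coding sequence) overlap Wdr83 on the opposite strand. Whether the counting used strand is not stated, and Wdr83 itself had between 4 and 9 reads a library.

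Dohh (ENSMUSG00000078440; chromosome 10, 81384428 to 81388352, plus strand) encodes the iron-dependent hydroxylase of the second step. It had 0.81 and 3.11 RPKM in WT libraries 1 and 2 and 2.69 and 3.63 RPKM in KO libraries 1 and 2, from 1, 3, 5 and 6 reads. WT library 1, with its single read, was the low one, and the other 3 libraries lay close together. The means were 1.96 ± 1.63 RPKM in WT and 3.16 ± 0.66 RPKM in KO (SD, n = 2 each). The log2 difference of 0.60 (SE 0.55) had a limma adjusted p of 0.732, with a 95% interval from -0.74 to 1.94, or 36.5% to 549% of the WT level in RPKM. Without WT library 1 it was 0.0084, and without WT library 2 it was 1.19 (limma adjusted p = 1.000 and 0.358).

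The Dohh values carry a further limit from the annotation. On the same strand, the protein-coding gene Gm48551 (81384466 to 81391560) covers 972 of the 2048 exonic bases of Dohh and 804 of the 909 bases of its coding sequence. Gm48551 was listed at 0 reads in all libraries. Across the table, the 141 protein-coding genes whose exonic bases were all shared with another gene on the same strand had no read in any library (100%), against 38.1% of the 15313 protein-coding genes with no exonic overlap. Of the 75 genes that, like Dohh, shared 40% to 55% of their exonic bases on the same strand and none on the opposite strand, 53.3% had no read. The share without a read was also 100% of the 31 genes wholly covered on the opposite strand. If reads on shared bases were left out, 105 coding bases of Dohh could have given reads. Per kilobase of the 1076 exonic bases that Dohh does not share, its level would be 1.54 and 5.92 RPKM in WT libraries 1 and 2 and 5.12 and 6.90 RPKM in KO libraries 1 and 2. The ratio of KO to WT is the same on either length.

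Of the 3 genes of the pathway that were tested, none passed an adjusted p of 0.05 in limma and none had an unadjusted p under 0.05, and limma-voom on the recovered reads called none either. Over all 11363 genes the shares past these thresholds were 0.106% and 7.32%. In none of the 4 genes did the values of the groups separate without overlap, against 40.4% of all genes tested (20.1% higher and 20.3% lower in KO). The median log2 difference over all tested genes was 0.00026. These 4 genes therefore gave no detectable difference between the WT libraries and those labelled KO, and the 95% intervals of the 3 tested genes began at 36.5% to 53.7% and ended at 232% to 549% of the WT level in RPKM.

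The order of the 4 genes depended on the length that reads were set against. Per gene length, the mean over the 4 libraries was 54.9 ± 13.6 RPKM for Eif5a, 4.56 ± 1.30 for Dhps, 2.56 ± 1.23 for Dohh and 0.68 ± 0.66 for Eif5a2 (SD, n = 4). Eif5a was 12.1 times Dhps and 21.5 times Dohh by these means. The gene length, however, is the union of all exons, and ribosomes read mainly the coding part, which was 19.6% of the length for Eif5a, 9.19% for Eif5a2, 47.8% for Dhps and 44.4% for Dohh.

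Per coding length, Eif5a stood at 281 ± 69.5 RPKM, Dhps at 9.54 ± 2.72, Eif5a2 at 7.39 ± 7.23 and Dohh at 5.77 ± 2.77 (SD, n = 4). Eif5a was then 29.4 times Dhps, 48.7 times Dohh and 38.0 times Eif5a2, the last with 1 of 4 libraries at 0 for Eif5a2. The Dohh values divide by all 909 coding bases. If only the 105 that Dohh does not share with Gm48551 were counted, its level would be 49.9 ± 23.9 RPKM (SD, n = 4), from 15.8 to 70.8. Eif5a would then be 5.63 times Dohh, with Eif5a still set against all of its coding bases. Of the 30-base stretches of its coding sequence, 42.9% also occurred in processed pseudogenes, so this ratio compares unlike lengths. All Eif5a ratios given here keep its full coding length. Eif5a was the highest in 4 of 4 libraries. Dhps was above Dohh in 4 of 4 on the full lengths, but Dohh was above Dhps in 3 of 4 per unshared exonic base and in 4 of 4 per unshared coding base, so the order of the enzymes is not settled by these values. Dhps and Dohh were each above Eif5a2 in 2 of 4 libraries on the full coding length, where the spreads of the 3 genes overlapped, and Dohh was above it in 4 of 4 per unshared coding base. Eif5a was the highest on each of these lengths. All reads of a gene were taken to lie on its coding sequence for this scale, which these totals per gene cannot show.

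**Figure D2:**
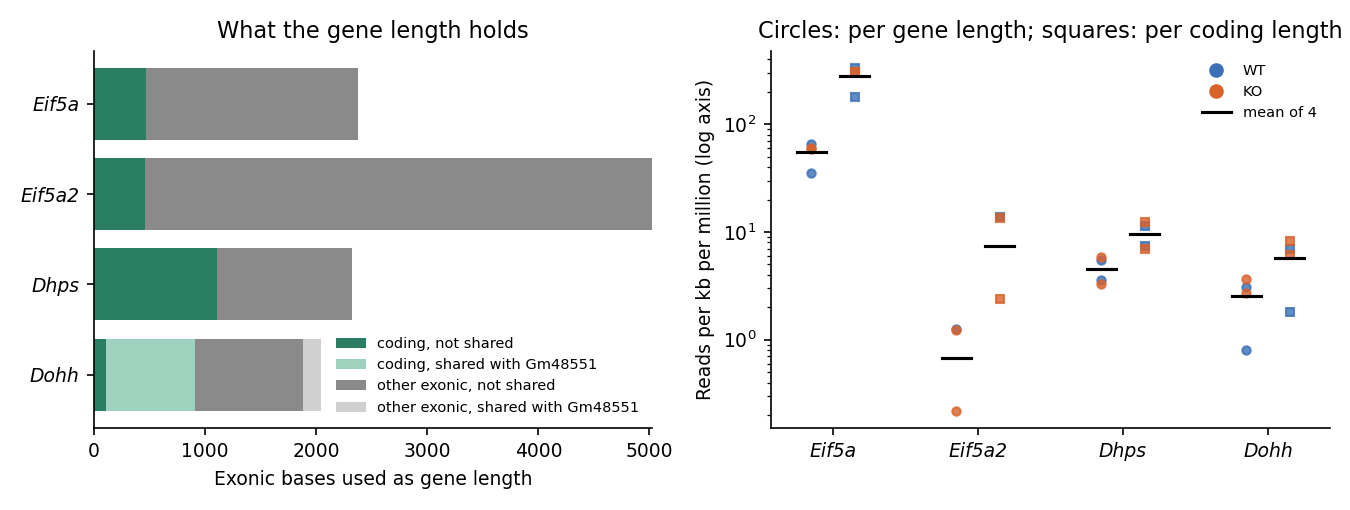
Left, exonic bases that make up the length of each gene, split into coding and other bases and into those shared or not shared with Gm48551. Right, RPKM on a log axis in each library (WT blue, KO orange) per gene length (circles) and per coding length (squares), with the mean of 4 libraries as a black line; the WT library with 0 reads on Eif5a2 has no point on the log axis, and Eif5a lies above the other 3 genes on both lengths.

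Substrate and enzymes were also set against each other within each library. The ratio of Eif5a to Dhps in RPKM was 9.78 and 11.9 in WT libraries 1 and 2 and 18.2 and 10.1 in KO libraries 1 and 2. The exact 95% counting intervals were 3.92 to 31.4 and 5.21 to 33.5 in WT and 8.57 to 46.1 and 5.45 to 20.9 in KO, and all overlapped, since Dhps had 5 to 11 reads a library. The groups overlapped too, and the exact two-sided permutation p was 0.667. The ratio of Dhps to Dohh, on the full gene lengths, was 4.41 and 1.76 in WT and 1.23 and 1.62 in KO. Here the WT values lay above the KO values, at an exact two-sided permutation p of 0.333, the smallest that 2 libraries a group allow. WT library 1, the highest, had a single Dohh read in its denominator, and the 95% counting interval of the ratio included 1 in every library. Against the Dohh bases not shared with Gm48551, the ratio was 2.32 and 0.93 in WT and 0.65 and 0.85 in KO, so which enzyme was the higher depended on the length used.

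Genes that make, convert or degrade the polyamines upstream of hypusination were examined next. Of 15 listed, 10 passed the filter and none had an unadjusted p under 0.05, with 7 values above 0, 3 below and a median log2 difference of 0.21. Odc1, which makes putrescine from ornithine, had 27.3 and 57.3 RPKM in WT libraries 1 and 2 and 37.6 and 57.1 RPKM in KO libraries 1 and 2. Srm, the spermidine synthase, had 14.5 and 25.2 RPKM in WT and 20.7 and 31.7 RPKM in KO. Per gene length, both were above Dhps and Dohh in every library, and the groups overlapped for both. Neither was set against its coding length. Per unshared coding base, Dohh would have 15.8 and 60.6 RPKM in WT and 52.5 and 70.8 RPKM in KO, so their order against Dohh is not settled. Their log2 differences were 0.22 (SE 0.53) for Odc1 and 0.40 (SE 0.47) for Srm.

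The lowest value of the polyamine list was that of Smox. Smox, the spermine oxidase that returns spermine to spermidine, had 10.2 and 8.72 RPKM in WT and 4.53 and 10.8 RPKM in KO. Its log2 difference of -0.37 (SE 0.48; limma adjusted p = 0.811) came from groups that overlapped.

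Proteins that move eIF5A or act on its acetylation form a list of 4, and all 4 were tested. None had an unadjusted p under 0.05, 2 values were above 0 and 2 below, and the median was 0.02. Sirt2, a deacetylase, was the lowest at -0.25 (SE 0.51), with 11.5 and 4.22 RPKM in WT and 5.47 and 6.15 RPKM in KO. Hdac6, another deacetylase, was the highest at 0.40 (SE 0.67), with 1.43 and 0.36 RPKM in WT and 1.52 and 1.28 RPKM in KO. The values of the groups overlapped for both. Xpo4, the exportin that carries eIF5A out of the nucleus, had a log2 difference of 0.22 (SE 0.58).

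The elongation factor eEF2 carries diphthamide, which like hypusine is built on 1 residue of 1 translation factor by its own enzymes. All 9 genes listed for this pathway were tested, and none had an unadjusted p under 0.05, with 6 values above 0, 3 below and a median of 0.04. Eef2 itself had 314 and 298 RPKM in WT and 278 and 291 RPKM in KO, a log2 difference of -0.10 (SE 0.49). Dph3, which supplies electrons for diphthamide synthesis, was the lowest at -1.04 (SE 0.57; limma adjusted p = 0.690), with 2.77 and 2.36 RPKM in WT and 1.23 and 0.34 RPKM in KO, from 15 reads in all. Dph2, a subunit of the enzyme of the first step, was the highest at 0.73 (SE 0.61; limma adjusted p = 0.724), with 1.64 and 4.90 RPKM in WT and 3.27 and 8.99 RPKM in KO. In 3 of the 9 genes the groups did not overlap, which is no larger a share than the 40.4% over all genes.

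**Figure D3:**
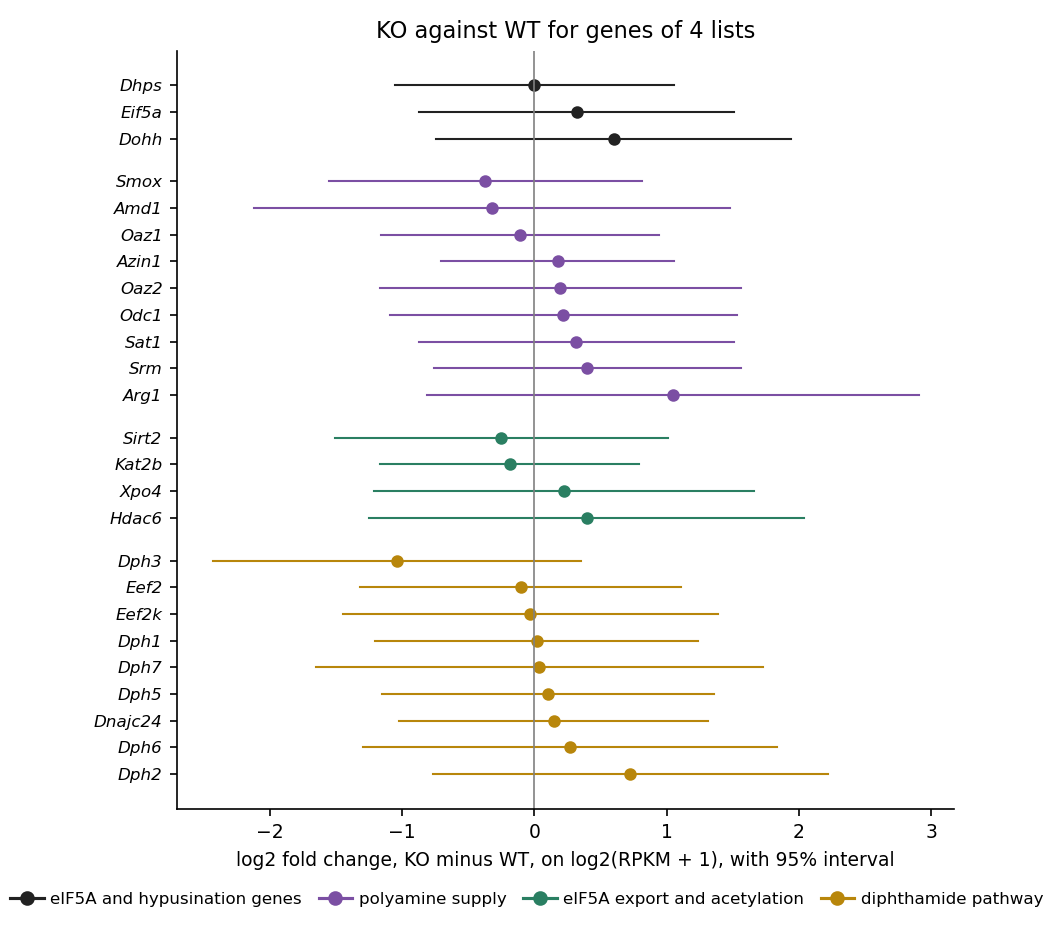
Log2 fold change, KO minus WT, on the log2(RPKM + 1) scale (horizontal axis) for genes of the hypusination pathway and of 3 lists around it, with 95% intervals from limma on 2 libraries a group. Every interval drawn includes 0, and the lowest value is that of Dph3 at -1.04.

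The pattern of each gene over the 4 libraries was also compared with that of other protein-coding genes of at least 5 RPKM, by the root mean square distance of log2(RPKM + 1) values centred on their own means. The nearest genes to Eif5a were Dbi at 0.022, Capza2 at 0.036 and Tsku at 0.042, and 435 of 4769 genes lay within 0.2. Dbi, an acyl-CoA binding protein gene, had 50.2 and 95.5 RPKM in WT libraries 1 and 2 and 87.6 and 88.8 RPKM in KO libraries 1 and 2. It was low in WT library 1 and level in the other 3, as Eif5a was. The nearest to Dhps were Pdlim7, Ptp4a2 and Jmjd6, with 253 of 4770 genes within 0.2, and the nearest to Dohh were Polr2h, Ogg1 and Vdac2, with 251 of 4770. With 4 libraries such likeness is common and is given as a description only.

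Scaling moved the log2 differences of these genes together with the rest of the table. When every library was given the same sum of RPKM, the median of all tested genes moved to 0.83, and the log2 differences became 1.39 for Eif5a, 0.89 for Dhps and 1.45 for Dohh. Relative to that median they were 0.56, 0.06 and 0.62. When each library was scaled to the same number of reads on protein-coding genes, the median was -0.09 and the values were 0.21, -0.09 and 0.53. The Dhps value stayed close to the median of all genes under both scalings.

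**Figure D4:**
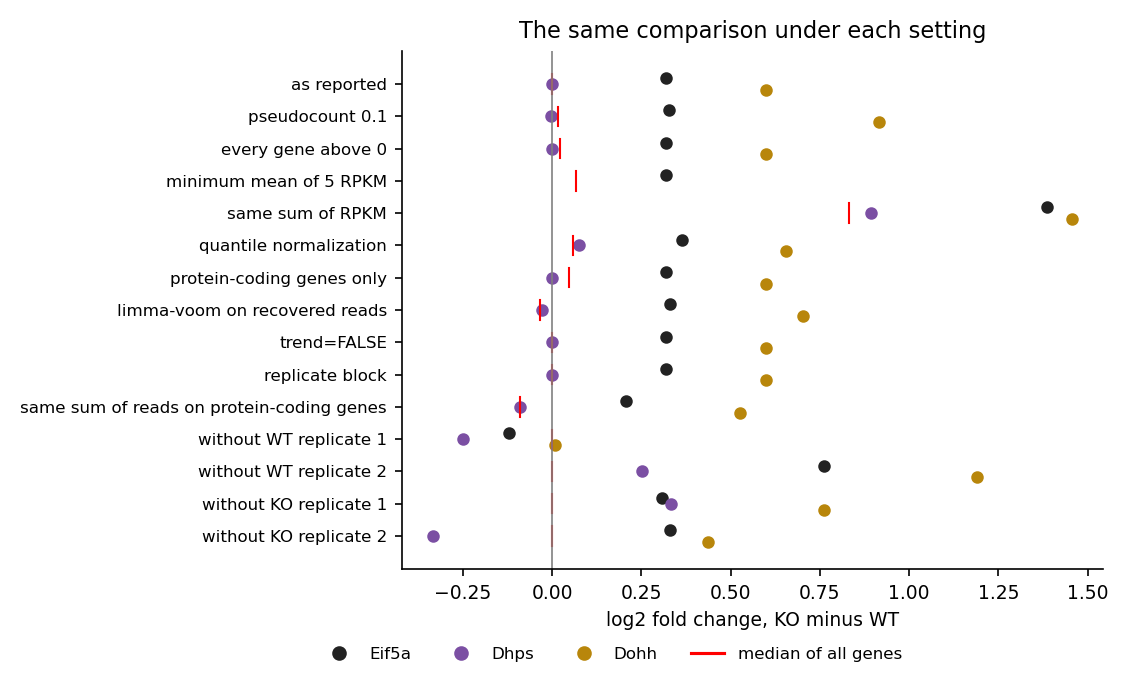
Log2 fold change, KO minus WT (horizontal axis), of Eif5a, Dhps and Dohh under each processing setting (rows), with the median of all tested genes as a red line; Dhps and Dohh have no point at a minimum mean of 5 RPKM. Eif5a lies between -0.12 and 1.39, and the values at either side of 0 in the rows that leave out 1 library show how far they rest on single libraries.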

How the data were processed

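Ribosome-protected fragments were measured in 2 WT and 2 KO libraries, grouped by their titles. Per the labels and the study's methods, the authors removed rRNA and tRNA reads, mapped the rest with Tophat2 (mm10, Ensembl annotation) and counted with HTSeq; the counting options are not given in the sources used here. The deposited values are RPKM per gene. Multiplied by gene length, 100% of them were whole multiples of a step within 0.01, which gave reads; the authors' library sizes were median-of-ratios size factors, not read totals. Of the gene identifiers, 99.7% were found in GENCODE M21, and 99.5% of those had the length of the exon union there, as all 4 genes of the pathway did.

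KO was compared with WT by limma 3.58.1 (R 4.3.3; eBayes with trend) on log2(RPKM + 1), leaving out genes whose mean was under 1 RPKM, with Benjamini-Hochberg adjustment over all 11363 genes; this scale understates changes of weakly read genes. Shares and ratios were compared by exact permutation. Named genes were the 4 of the pathway, rows named Eif5a, those of 3 lists at an unadjusted p under 0.05 or else each list's lowest and highest, and the 3 nearest in pattern; Odc1, Srm, Xpo4 and Eef2 were added for their role, and 1 gene of the polyamine list is not reported here. The members and lists were chosen with earlier results of these data known. Scripts were tested on simulated data.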

Additional observations from a re-analysis of the deposited data

How the results depend on the processing

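No alternative brought Eif5a, Dhps or Dohh past an adjusted p of 0.05 in limma: adjusted p lay between 0.343 and 0.964 for Eif5a over 14 alternatives, between 0.472 and 1.000 for Dhps over 13 and between 0.345 and 1.000 for Dohh over 13. With 1 library left out, values ran from -0.12 to 0.76 for Eif5a, from -0.33 to 0.33 for Dhps, from 0.0084 to 1.19 for Dohh and from -0.46 to 0.72 for Eif5a2; the lone library of a group was then assumed to vary like the other group. Without WT library 1 the sign of Eif5a (-0.12) turned. The Dhps value, 0.0009, turned to -0.0029 with a pseudocount of 0.1, to -0.027 in limma-voom and to -0.090 with equal reads on protein-coding genes, a setting added after the data were seen, and to -0.25 and -0.33 without WT library 1 or KO library 2. Dhps and Dohh had no value at a minimum mean of 5 RPKM. With the replicate block the values were 0.32 for Eif5a (adjusted p = 0.842), 0.0009 for Dhps (1.000) and 0.60 for Dohh (0.740), and it changed no call; the numbers only name the libraries (correlation of deviations 0.057, 1 value). Over all genes limma called 11 lower and 1 higher in KO, 76 and 1 with limma-voom, 11 and 7 with the same sum of RPKM, and 0 with a pseudocount of 0.1, with every gene above 0, with a minimum of 5 RPKM, with protein-coding genes only, without the trend, with the block or with any 1 library left out. Quantile normalization gave 11 and 1. Levels per coding length used GENCODE M21 in place of RefSeq protein lengths, which were not run. Depth limits Eif5a2, Dhps and Dohh, with 9, 29 and 15 reads over the 4 libraries.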
